A study of Mus musculus with 18 samples.

Results

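Luminal progenitors (LP) and mature luminal cells (ML) sorted from the mammary glands of the same KO mice were compared by bulk RNA sequencing. The comparison took the 3 LP KO and the 3 ML KO libraries of a series of 18 libraries, by the population and genotype that the labels give, and each LP KO library was paired with the ML KO library of its own mouse. The KO mice were 14-week-old females whose genotype the design text gives as Brca2(delta/delta) and Trp53(delta/+) with 1 MMTV-cre(T/+) transgene, which means Cre-deleted Brca2 on both alleles and Cre-deleted Trp53 on 1 allele. The genotype label calls them Brca2KO and the sample titles call the same mice a knockdown. The groups used here are LP KO, ML KO, LP WT, ML WT and, for the basal genes, basal KO and basal WT. Each had 3 libraries, from 3 KO and 3 WT mice of the same age and sex. The strain label reads MMTVcre Brca2(fl/fl) Trp53(fl/+) for all 18 libraries, WT included, so whether the WT mice carried Cre or floxed alleles cannot be told from it. The MMTV promoter drives Cre in mammary epithelium and in some other tissues, and the share of cells of each sort in which the alleles were recombined was not measured. No source used here names the surface markers or gates of the sort.

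The mammary duct has an inner luminal and an outer basal (myoepithelial) layer. Luminal progenitors depend on the transcription factor Elf5, carry the receptor tyrosine kinase Kit and give rise to the cells that secrete milk. Mature luminal cells sense hormones through the estrogen receptor (Esr1), the progesterone receptor (Pgr) and the prolactin receptor (Prlr), and pass the signal to their neighbours through secreted factors such as amphiregulin. Basal cells express keratins 5 and 14 and the transcription factor p63 (Trp63), anchor to the basement membrane and contract to eject milk.

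The libraries held 22416572, 32724291 and 27547285 counts in LP KO and 8760092, 30546608 and 21763793 counts in ML KO, within 5973389 to 39194603 counts over all 18. Values are CPM, counts divided by the scaled library size, on which levels of different genes are not compared because gene length is not taken into account. LP KO replicate 3 stood apart from the other 2 LP KO libraries. Relative to the mean of those, the median gene of at most 1500 bases lay at a log2 difference of 0.62 and the median gene of at least 6000 bases at -0.84, against 0.04, 0.04 and -0.13 for short and -0.04, -0.07 and 0.08 for long genes in ML KO replicates 1, 2 and 3. Counts of called list members reported below that moved by over 1.5 times without this library are given with and without it. In bulk samples, fewer cells of a type and less RNA per cell cannot be told apart.

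Trp53, the floxed tumour suppressor gene, had 9.05, 7.25 and 7.71 CPM in LP KO, against 14.9, 13.6 and 17.0 CPM in ML KO. Each LP KO library lay below every ML KO library. The log2 difference (LP KO minus ML KO) was -0.95 ± 0.29 (SE from the fit over all 18 libraries, n = 3 KO mice). In edgeR's quasi-likelihood test the adjusted p was 0.037. The call was lost in 6 of 13 alternative settings. Its adjusted p was 0.081 without the mouse block, 0.12, 0.091 and 0.089 without LP KO replicate 1, 2 or 3, and 0.13 and 0.28 without ML KO replicate 2 or 3. In the WT mice Trp53 had 67.1, 72.6 and 150.3 CPM in LP WT, against 47.2, 49.2 and 39.6 CPM in ML WT, so that the LP minus ML difference in KO lay 1.96 below that in WT on the log2 scale (KO minus WT, -1.96; edgeR adjusted p = 0.0064). Brca2, which encodes the homologous recombination mediator, had 20.4, 24.7 and 10.3 CPM in LP KO, against 9.82, 15.8 and 8.03 CPM in ML KO. The log2 difference of 0.71 ± 0.28 did not pass the test (edgeR adjusted p = 0.097). Counts per gene do not separate a deleted exon from the rest of the transcript, so the Brca2 level does not check the deletion.

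Of 16466 genes tested, 2830 (17.2%) differed between LP KO and ML KO at an adjusted p under 0.05, 1074 (6.52%) higher and 1756 (10.7%) lower in LP KO. The shares of 6.52% and 10.7% are the background for every KO list count below. The 3 LP KO and 3 ML KO libraries did not overlap for 5286 genes (32.1%). In the WT mice the same comparison called 6484 genes (39.4%), 3370 (20.5%) higher and 3114 (18.9%) lower in LP WT. The test of the difference between these differences (the interaction, KO minus WT) called 1727 genes (10.5%), 468 (2.84%) above and 1259 (7.65%) below 0. The KO count depended on single libraries and on the pairing. It was 1829 without LP KO replicate 2, 1601 without LP KO replicate 3, 1241 without ML KO replicate 2 and 1185 without ML KO replicate 3, and 1891 with 517 higher without the mouse block.

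Most genes called in KO were called the same way in WT, and most of the WT genes were not called in KO. Of the 1074 genes higher in LP KO, 817 (76.1%) were also higher in LP WT, which is 24.2% of the WT list. Of the 1756 genes lower in LP KO, 1146 (65.3%) were also lower in LP WT, which is 36.8% of the WT list. Opposite calls were made for 11 genes higher in LP KO and 61 genes lower in LP KO. The median log2 differences over all genes tested were 0.02 in KO and 0.01 in WT.

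Both luminal populations lay apart from their WT counterparts in a principal component analysis of log CPM. It was run on all 18 libraries, so the shares of variance include the basal ones. On the first component the basal libraries lay at -153.6 to -132.4, apart from all luminal ones. On the first component, with 49.6% of the variance, LP KO lay at 46.9 to 62.2, ML KO at 41.3 to 45.6, LP WT at 49.3 to 74.2 and ML WT at 123 to 133. On the second, with 19.1%, LP KO lay at 86.4 to 100.8, LP WT at 46.3 to 57.8 and ML WT at -123 to -102. ML KO replicate 1 lay at 38.9, nearer to LP KO than ML KO replicates 2 and 3 at -15.3 and -15.5. On the third, with 9.15%, LP KO lay at 14.5 to 26.3, ML KO at 61.3 to 69.5, LP WT at -83.9 to -56.5 and ML WT at -13.6 to 6.602. The KO and WT ranges thus overlapped for LP on the first component and were separate for LP on the other two and for ML on all 3.

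Luminal progenitor genes were higher in LP KO for 16 of 20 list members and lower for 0, with a median log2 difference of 1.87, against 20 of 20 and 5.30 in WT. Elf5, the transcription factor that directs alveolar fate, had 306, 342 and 638 CPM in LP KO and 182, 50.2 and 105 CPM in ML KO. Each LP KO library lay above every ML KO library, by 1.89 ± 0.42 on the log2 scale (edgeR adjusted p = 0.0062, and 0.066 and 0.071 without ML KO replicate 2 or 3). Kit had 495, 629.5 and 397 CPM in LP KO and 257, 127 and 167 CPM in ML KO. Its groups did not overlap either, and its log2 difference was 1.43 ± 0.36 (edgeR adjusted p = 0.012). That call was lost without LP KO replicate 1 or 2 (0.056 and 0.053) and without ML KO replicate 2 or 3 (0.11 and 0.079). Aldh1a3, a retinaldehyde dehydrogenase used as a marker of progenitor activity, had 234, 197 and 123 CPM in LP KO, against 102, 40.6 and 22.4 CPM in ML KO, a log2 difference of 1.90 ± 0.37 (edgeR adjusted p = 0.0025).

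The LP minus ML difference of these genes was smaller in KO than in WT. Kit had 492, 833 and 852 CPM in LP WT and 11.2, 10.8 and 13.3 CPM in ML WT. Elf5 had 6.18, 9.84 and 11.8 CPM in ML WT, and Aldh1a3 19.2, 7.09 and 9.67 CPM. No ML KO library reached so low a level for Kit, Elf5 or Aldh1a3. The interaction was -4.49 for Kit (edgeR adjusted p = 5e-05), -3.43 for Elf5 (0.0015) and -3.34 for Aldh1a3 (0.00063). Over the 20 list members it was below 0 for 18 and above 0 for 0. The mean level in ML KO as a share of that in LP KO had a median of 28.1% over the list, between 5.96% for Ltf and 123% for the integrin Itga2, whereas in WT the median was 2.56%. ML KO replicate 1 held the highest level among the ML KO libraries for Kit, Elf5 and Aldh1a3.

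**Figure D1:**
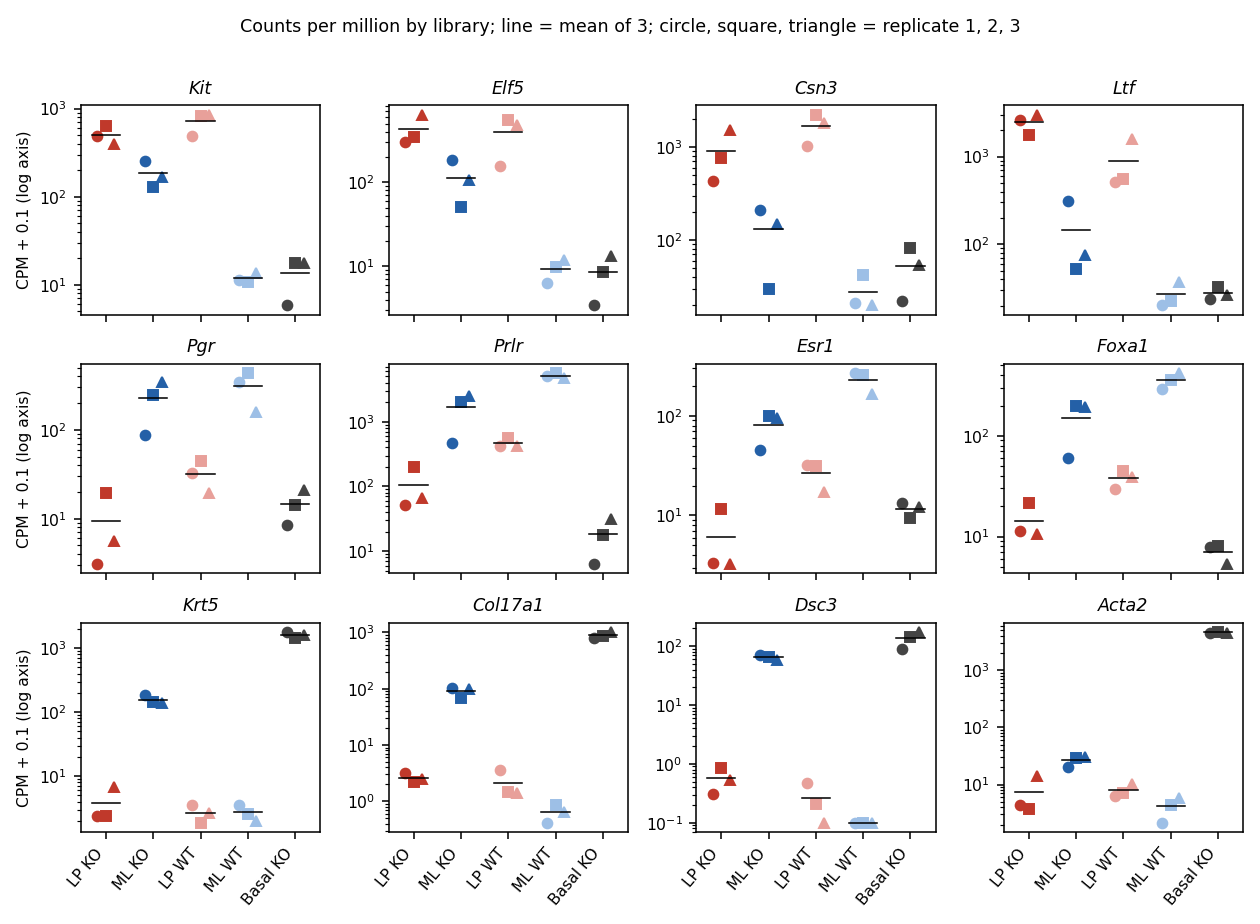
CPM (plus 0.1, log axis) of 12 genes in the libraries of LP KO, ML KO, LP WT, ML WT and basal KO, with the mean of 3 as a line. For Kit and Elf5 the ML KO libraries lie between LP KO and ML WT, for Pgr and Esr1 they lie above LP KO, and for Krt5, Col17a1 and Dsc3 they lie far above LP KO and both WT luminal groups.

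Milk protein and secretory genes were higher in LP KO. Of 25 tested, 15 were higher in LP KO and 0 lower, with a median log2 difference of 1.90, against 24 higher and 1 lower in WT with a median of 4.90. Lactoferrin (Ltf), an iron-binding antimicrobial milk protein, had 2638, 1764 and 2992 CPM in LP KO, against 312, 51.8 and 76.6 CPM in ML KO. This was the largest rise among genes of at least 20 CPM whose libraries did not overlap (log2 4.35 ± 0.51, edgeR adjusted p = 2.8e-05). It had 508, 551 and 1598 CPM in LP WT and 20.3, 22.8 and 37.5 CPM in ML WT, and its interaction of -0.51 was not called (edgeR adjusted p = 0.66). Transferrin (Trf), an iron carrier of milk and plasma, followed with 1474, 3382 and 4478 CPM in LP KO and 387, 146 and 348 CPM in ML KO (log2 3.43 ± 0.42, edgeR adjusted p = 4e-05). Alpha-lactalbumin (Lalba), the regulatory subunit of lactose synthase, had 19.7, 59.3 and 146 CPM in LP KO and 3.87, 3.01 and 13.2 CPM in ML KO, a log2 difference of 3.35 ± 0.54 (edgeR adjusted p = 0.00053). Kappa-casein (Csn3) had 428, 757 and 1519 CPM in LP KO, against 211, 29.7 and 150.0 CPM in ML KO. Its log2 difference of 2.66 ± 0.62 had an edgeR adjusted p of 0.0076, which was 0.051 without LP KO replicate 3 and 0.074 without ML KO replicate 3. The other caseins Csn2, Csn1s1 and Csn1s2a had log2 differences of 1.80, 1.71 and 1.90 and did not pass the test.

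Innate immune and antimicrobial genes, which luminal progenitors express as part of the defence of the gland, were higher in LP KO for 19 of 27 and lower for 1, with a median log2 difference of 1.81 (WT 22 and 1, median 4.15). Cd14, the lipopolysaccharide co-receptor and a surface marker of progenitors, had 460.1, 566 and 938 CPM in LP KO and 97.2, 39.5 and 50.9 CPM in ML KO (log2 3.37 ± 0.39, edgeR adjusted p = 2.3e-05). Lcn2, an iron-siderophore-binding protein, had 1408, 2029 and 2879 CPM in LP KO and 498, 169.6 and 216 CPM in ML KO. Csf3, the granulocyte growth factor, had 468, 143 and 136 CPM in LP KO and 94.5, 13.9 and 9.29 CPM in ML KO. The neutrophil chemokine Cxcl2 had 794, 596 and 347 CPM in LP KO, against 213, 49.7 and 42.8 CPM in ML KO. Lcn2, Csf3 and Cxcl2 were named by a rule that required the LP KO and ML KO libraries not to overlap, so their separation is not a further result. The log2 differences were 2.96, 3.10 and 2.84 for Lcn2, Csf3 and Cxcl2 (edgeR adjusted p = 0.00082, 0.00049 and 3.3e-05). Without the mouse block the list had 7 members higher, and the adjusted p was 0.078 for Csf3 and 0.096 for Cxcl2. The 1 member lower in LP KO was Il33, an alarmin of the interleukin-1 family (log2 -3.67), with 1.29, 15.8 and 1.98 CPM in LP KO and 12.1, 140.5 and 62.8 CPM in ML KO. Saa1 and Saa2 (2.60 and 3.37) are near-identical copies whose reads may be split between them.

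Interferon-stimulated genes were higher in LP KO for 18 of 34 and lower for 1, Stat2, with a median log2 difference of 1.05. In WT 12 were higher and 7 lower, with a median of 0.09, and the interaction was above 0 for 8 and below 0 for 4. Irf7, the transcription factor that amplifies the interferon response, had 99.6, 55.6 and 209 CPM in LP KO and 39.6, 16.9 and 35.2 CPM in ML KO (log2 1.93 ± 0.31, edgeR adjusted p = 0.00049). Gbp3, an interferon-induced GTPase, had 82.5, 53.2 and 108 CPM in LP KO and 33.7, 13.2 and 20.8 CPM in ML KO (log2 1.89 ± 0.32, edgeR adjusted p = 0.00075). Ifit3, which belongs to the family of interferon-induced proteins with tetratricopeptide repeats, had 50.8, 27.0 and 85.6 CPM in LP KO, against 15.1, 4.91 and 6.80 CPM in ML KO. The groups did not overlap, and the log2 difference was 2.67 ± 0.38 (edgeR adjusted p = 0.00027). Ifit3b, a near-identical neighbour whose reads may be shared with Ifit3, had a log2 difference of 2.77. In WT the level of Ifit3 was 0.247, 2.11 and 3.13 CPM in LP and 0 in all 3 ML libraries, from 72 counts over LP WT and 0 over ML WT. Without the mouse block 9 members were called higher, and without LP KO replicate 3, which had the highest level of Irf7, Gbp3 and Ifit3, 14 were. The lower count was 0 without LP KO replicate 1 or 3, ML KO replicate 2 or 3, or the mouse block.

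The promoter stretches of Ifit3, Ifit3b and Gbp3 are shown because these are the members of lowest p in that list whose RefSeq window (GRCm38.p6, the same build as mm10) holds the core letters of the interferon-stimulated response element, GAAA and GAAA with any 2 bases between them, searched on both strands. They held them in 16 of 26 genes of the list with a window of 250 bases before to 50 bases after a start (61.5%), against 1079 of 27025 genes with such a window (3.99%). Irf7, with 1 window, held no match. The lines give the 250 bases before the start on the plus strand, 5′ to 3′, at chr19:34583279-34583528 for Ifit3, chr19:34607707-34607956 for Ifit3b and chr3:142559794-142560043 for Gbp3, with matches in capitals (in Gbp3 they overlap, and that gene has 2 windows of which 1 holds them).
Ifit3: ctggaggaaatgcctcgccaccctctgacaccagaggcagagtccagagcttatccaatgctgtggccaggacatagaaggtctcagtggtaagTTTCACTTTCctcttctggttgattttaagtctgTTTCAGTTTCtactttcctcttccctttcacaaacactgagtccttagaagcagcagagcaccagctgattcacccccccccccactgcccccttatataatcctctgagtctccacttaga
Ifit3b: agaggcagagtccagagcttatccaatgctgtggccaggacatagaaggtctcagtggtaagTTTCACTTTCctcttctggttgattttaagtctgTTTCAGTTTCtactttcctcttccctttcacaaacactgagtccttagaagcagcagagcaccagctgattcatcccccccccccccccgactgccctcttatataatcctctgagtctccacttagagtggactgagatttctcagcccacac
Gbp3: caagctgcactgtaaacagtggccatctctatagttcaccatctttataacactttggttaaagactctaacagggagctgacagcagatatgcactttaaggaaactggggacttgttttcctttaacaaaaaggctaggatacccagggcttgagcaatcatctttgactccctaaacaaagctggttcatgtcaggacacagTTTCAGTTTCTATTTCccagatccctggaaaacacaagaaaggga
Ifit3 and Ifit3b share both matches, which begin 156 and 122 bases before the start in Ifit3 and 188 and 154 bases before it in Ifit3b. In Gbp3 they begin 45 and 39 bases before the start. A match is a description of the letters and not of factor binding.

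The summed levels of immune cell markers overlapped between LP KO and ML KO. Of 17 in the list 5 passed the filter on low counts, and 2 of these, Csf1r and Cd68, were higher in LP KO. That count was 0 without LP KO replicate 2, LP KO replicate 3, ML KO replicate 2, ML KO replicate 3 or the mouse block and after thinning, and 1 without LP KO replicate 1 or ML KO replicate 1. The summed level over the 17 was 10.3 to 50.3 CPM in LP KO and 4.39 to 11.6 CPM in ML KO, and 1 marker was at 0 in all LP KO and 2 in all ML KO libraries. The highest value belonged to LP KO replicate 3, in which the macrophage gene Lyz2 had 25.3 CPM, against 0.709 and 0.614 CPM in the other 2 LP KO libraries and 0.793, 0.331 and 3.01 CPM in ML KO. The pan-leukocyte gene Ptprc had 0.334, 0.167 and 1.09 CPM in LP KO and 0.198, 0.0552 and 0.554 CPM in ML KO. Antigen presentation genes were higher for 4 of 19 (Cd74, H2-K1, H2-Eb1, H2-Ab1) and lower for 0, but for 1 of 19 without LP KO replicate 3, without ML KO replicate 3 or without the mouse block. The part of immune cells in these results was not tested.

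Mature luminal genes were lower in LP KO for 19 of 20, with a median log2 difference of -3.46, and none was higher. In WT 17 of 20 were lower, with a median of -3.25. The interaction was called for 2 of the 20, both above 0. Prlr had 51.5, 202 and 65.8 CPM in LP KO, against 462, 2029 and 2524 CPM in ML KO. The groups did not overlap, ML KO replicate 1 was the lowest of its group, and the log2 difference was -3.79 ± 0.40 (edgeR adjusted p = 9.4e-06). Pgr had 3.00, 19.1 and 5.50 CPM in LP KO, against 86.6, 245 and 345 CPM in ML KO, a log2 difference of -4.71 ± 0.50 (edgeR adjusted p = 9.6e-06).

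Esr1 had 3.25, 11.5 and 3.16 CPM in LP KO, against 45.4, 99.4 and 95.7 CPM in ML KO (log2 -3.85 ± 0.41, edgeR adjusted p = 1.1e-05). Foxa1, the pioneer factor that opens chromatin for the estrogen receptor, had 11.1, 21.2 and 10.6 CPM in LP KO and 59.8, 199 and 193 CPM in ML KO (log2 -3.36 ± 0.34, edgeR adjusted p = 5.7e-06). In both genes ML KO replicate 1 lay below the other 2 of its group and still above all LP KO libraries. The interactions of Prlr, Pgr, Esr1 and Foxa1 were -0.31, -1.43, -0.73 and -0.12, and none passed the test (edgeR adjusted p = 0.75, 0.15, 0.40 and 0.90), which does not show that the differences were equal. ML WT held 5094, 5557 and 4779 CPM of Prlr and 267, 259 and 166 CPM of Esr1, above the ML KO libraries. Over the list the ML KO mean was a median 52.2% of the ML WT mean. Gata3, a luminal factor of both populations, had 70.6, 76.2 and 102 CPM in LP KO and 93.7, 89.4 and 133 CPM in ML KO, and was the member not called (log2 -0.33 ± 0.25, edgeR adjusted p = 0.39).

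**Figure D2:**
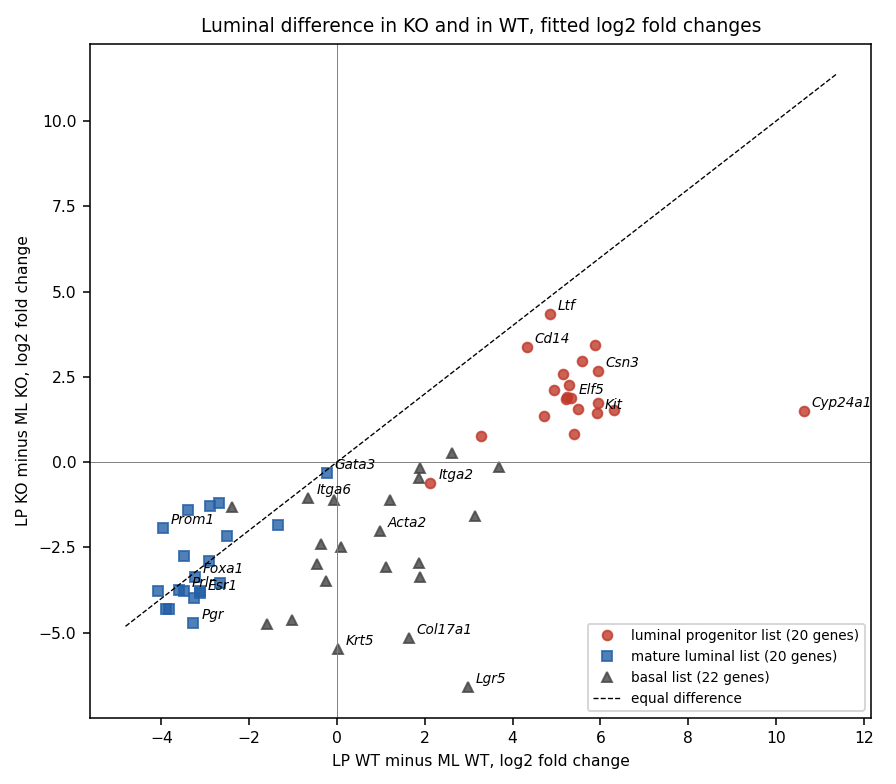
Fitted log2 fold changes of LP over ML, in KO on the vertical and in WT on the horizontal axis, for the luminal progenitor, mature luminal and basal gene lists. Mature luminal genes lie near the line of equal differences, progenitor genes lie below it with KO values of at most 4.35, and Krt5, Col17a1 and Lgr5 lie far below it; Cyp24a1 at the far right is listed at 0 in all ML WT libraries.

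The promoter stretch of Prlr, the prolactin receptor gene described above, is shown as a mature luminal counterpart, with the forkhead core letters TGTTTAC searched on both strands. Of its 3 RefSeq windows (GRCm38.p6), the one that holds them has its 250 bases before the start at chr15:10223656-10223905, plus strand, with the match in capitals, 215 bases before the start. Such letters were in 3 of 16 mature luminal genes with a window (18.8%), against 1095 of 27025 genes (4.05%).
Prlr: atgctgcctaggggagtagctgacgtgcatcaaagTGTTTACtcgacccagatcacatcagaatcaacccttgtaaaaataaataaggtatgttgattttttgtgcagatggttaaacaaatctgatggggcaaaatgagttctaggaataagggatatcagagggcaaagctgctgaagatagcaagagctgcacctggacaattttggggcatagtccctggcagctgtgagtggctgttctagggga
With 16 genes the share rests on 3 matches.

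Genes that respond to estrogen and progesterone were lower in LP KO for 10 of 16 and higher for 1, with a median log2 difference of -1.98 (WT 8 lower and 1 higher, median -2.46). Areg, the epidermal growth factor receptor ligand through which estrogen acts on neighbouring cells, had 51.0, 114 and 54.2 CPM in LP KO and 755, 1285 and 838 CPM in ML KO, a log2 difference of -3.75 ± 0.37 (edgeR adjusted p = 4.6e-06). Calca, the calcitonin gene, had 24.5, 21.6 and 7.38 CPM in LP KO, against 1201, 277 and 100.2 CPM in ML KO, where replicate 1 was the highest. Tnfsf11 (RANK ligand), the progesterone-induced paracrine factor, had 0.625, 0.139 and 0 CPM in LP KO and 20.6, 1.08 and 0.791 CPM in ML KO, so that its fold rests largely on ML KO replicate 1. Its receptor Tnfrsf11a was higher in LP KO (log2 1.53). The member higher in LP KO was stanniocalcin 1 (Stc1, 1.45), whereas its paralogue Stc2 was lower (-2.74).

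Of 14 ErbB receptors and ligands tested, 4 were lower and 1 higher in LP KO. The ligands Areg, Epgn, Nrg4 and Ereg were lower (log2 -3.75, -1.76, -3.22 and -2.28) and Hbegf was higher (1.12). The receptors Egfr, Erbb2, Erbb3 and Erbb4 were not called (0.82, -0.26, -0.92 and 0.18), nor were the other listed ligands. The higher count among ErbB genes, 1 in the main fit, was 2 without LP KO replicate 3 and 0 without the mouse block. In the prolactin, RANK and insulin-like growth factor axis 2 of 20 were higher and 6 lower. The binding proteins split: Igfbp5 was higher in LP KO, with 1004, 2285 and 1724 CPM against 545, 288 and 598 CPM in ML KO (log2 1.76 ± 0.35, edgeR adjusted p = 0.0025), and Igfbp3 and Igfbp2 were lower (-2.93 and -2.47).

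Of 30 luminal transcription factors and chromatin regulators 6 were higher in LP KO (Elf5, Cebpd, Sox10, Cebpb, Elf3 and Tfap2c) and 9 lower (Pgr, Esr1, Foxa1, Tbx3, Tfap2b, Myb, Tox3, Bcl11b and Spdef). Without ML KO replicate 2 or 3 the higher count was 2. Tbx3, a T-box repressor needed for mammary development, had a log2 difference of -2.91 in KO and -2.91 in WT. Runx1, Stat5a and Sox9 were not called (-0.63, -0.59 and -0.02).

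Basal genes were lower in LP KO than in ML KO. In WT more were higher in LP, but both luminal groups held little of them. The list summed to 345 to 514 CPM in LP WT and 349 to 595 CPM in ML WT. In basal WT it summed to 27121 to 31435 CPM. The LP WT and ML WT means were a median 0.38% and 0.25% of the basal WT mean. Of 22 basal and myoepithelial genes, 15 were lower in LP KO than in ML KO and 0 higher, with a median log2 difference of -2.44, whereas in WT 11 were higher and 1 lower in LP, with a median of 1.04. The interaction was below 0 for 18 and above 0 for 0. Krt5, the basal keratin, had 2.29, 2.29 and 6.72 CPM in LP KO, against 184, 147 and 141 CPM in ML KO. It had 3.45, 1.78 and 2.58 CPM in LP WT and 3.48, 2.50 and 1.93 CPM in ML WT. The ML KO libraries thus stood apart from all LP WT and ML WT libraries. Their separation from LP KO was required by the rule that named Krt5. The log2 difference of -5.49 ± 0.37 in KO (edgeR adjusted p = 2.4e-07) had an interaction of -5.52 (edgeR adjusted p = 7.3e-06). Krt14, its keratin partner, had 26.7, 24.3 and 52.97 CPM in LP KO and 233, 309 and 245 CPM in ML KO (log2 -2.95). Col17a1, the hemidesmosomal collagen, had 3.13, 2.06 and 2.37 CPM in LP KO and 104, 68.3 and 97.3 CPM in ML KO (log2 -5.15 ± 0.30, edgeR adjusted p = 8.9e-08). The basal master regulator Trp63 had 1.79, 3.82 and 2.67 CPM in LP KO and 27.7, 33.9 and 29.8 CPM in ML KO (log2 -3.50).

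The level of basal genes in ML KO was set beside their level in basal KO. These shares were not corrected for the level of each gene in luminal cells of WT mice. The ML KO mean as a percentage of the basal KO mean ranged from 0.345% for the contractile gene Cnn1 to 33.5% for the integrin Itga6, with a median of 4.98%. The ML WT mean was a median 0.25% of the basal WT mean. Itga6 was highest there too, at 44.4%, so its share was not larger in ML KO than in ML WT. A split by role, made after the values were seen, gave 5.78% to 12.4% for Krt5, Krt14, Krt17, Col17a1, Trp63 and Cdh3 and 0.345% to 2.71% for the 7 contractile genes Acta2, Actg2, Myh11, Mylk, Cnn1, Tagln and Tpm2. Smooth muscle actin (Acta2) had 4.21, 3.62 and 14.2 CPM in LP KO, 20.5, 29.2 and 30.1 CPM in ML KO and 4532, 4601 and 4525 CPM in basal KO. In LP KO the median over the list was 0.675% of basal KO. The summed level of the 22 genes was 306 to 442 CPM in LP KO, 1342 to 1533 CPM in ML KO and 22103 to 28035 CPM in basal KO. The part of basal cells sorted with ML KO in this was not tested.

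**Figure D3:**
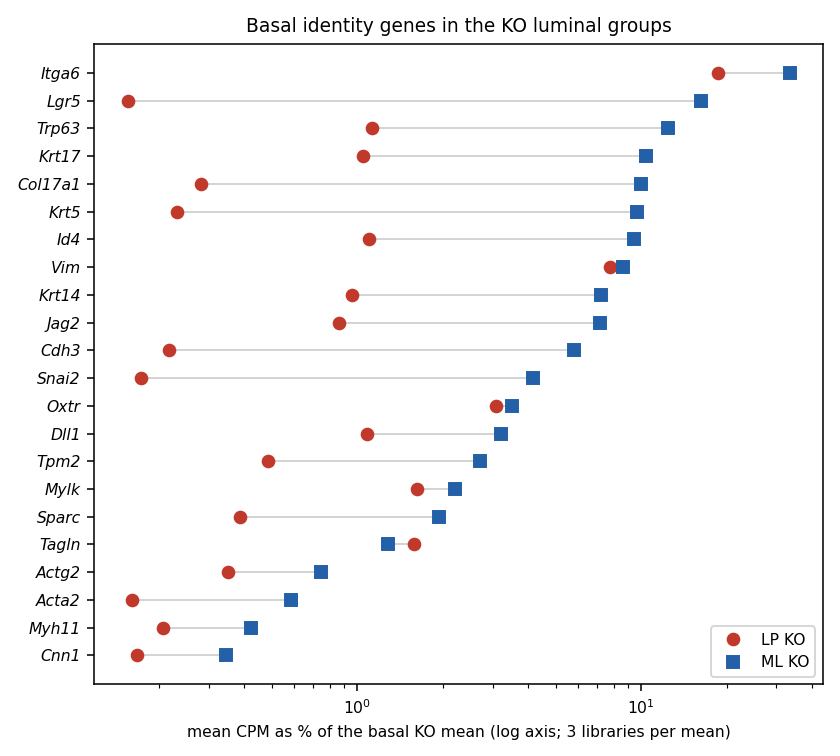
Mean CPM of the 22 basal and myoepithelial genes in LP KO (circles) and ML KO (squares) as a percentage of the basal KO mean, on a log axis. In ML KO the share runs from 0.345% for Cnn1 to 33.5% for Itga6, which was at 44.4% of basal WT in ML WT (not shown). Keratins, Col17a1, Trp63 and Cdh3 lie between 5.78% and 12.4%.

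Several of the genes with the largest fall were low in both WT luminal groups. Dsc3, a desmosomal cadherin of stratified epithelium, had 0.208, 0.753 and 0.428 CPM in LP KO, against 70.0, 65.7 and 59.1 CPM in ML KO, from 45 counts over the LP KO group and 4580 over the ML KO group. It had 4 counts over LP WT and 0 over ML WT. Its log2 difference of -7.14 ± 0.45 was the largest fall among genes of at least 20 CPM whose libraries did not overlap (edgeR adjusted p = 3.8e-07). Its partner Dsg3, chosen after its values were seen, had 2.71, 3.26 and 0.955 CPM in LP KO and 65.3, 95.5 and 58.1 CPM in ML KO. The ML KO mean was 48.0% of the basal KO mean for Dsc3 and 98.8% for Dsg3, above the shares of all 22 basal list genes. Both genes were themselves higher in basal KO than in basal WT. Dsc3 had 88.53, 145.2 and 172.2 CPM in basal KO and 9.874, 14.5 and 13.47 CPM in basal WT. Dsg3 had 52.32, 85.14 and 84.12 CPM in basal KO and 10.03, 1.615 and 2.92 CPM in basal WT. The interaction of Dsg3 (-3.60) was not called (edgeR adjusted p = 0.46).

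Ccnd2, a D-type cyclin, had 1.00, 1.17 and 0.889 CPM in LP KO and 37.6, 37.8 and 46.9 CPM in ML KO (log2 -5.32 ± 0.35, edgeR adjusted p = 2.3e-07). Follistatin (Fst), the activin antagonist, had 2.17, 2.79 and 3.03 CPM in LP KO and 84.1, 98.1 and 106 CPM in ML KO. The Wnt inhibitor Wif1 had 1.00, 0.837 and 0.659 CPM in LP KO, against 21.7, 41.3 and 27.6 CPM in ML KO. Hmcn1, an extracellular matrix protein, had 0.667, 0.641 and 0.132 CPM in LP KO and 39.5, 19.6 and 34.5 CPM in ML KO. In each of these 4 genes the interaction was called below 0. The rule that named them required the ML KO and LP KO libraries not to overlap, so their separation is not a further result. In both WT luminal groups Ccnd2, Wif1 and Hmcn1 had at most 0.740, 0.245 and 0.370 CPM, and Fst had at most 6.18 CPM. The interaction of Wif1 (-5.20) rests on 4 counts over LP WT and 5 over ML WT, and was -1.0 without LP WT replicate 3 (edgeR adjusted p = 0.9) and -1.88 with libraries thinned to one depth (0.87). The other large falls (Pcdhac2, Col8a1, Sv2c, Cyp3a57 and Ccbe1) were mature luminal in WT too, with WT log2 differences of -3.56 to -4.05 and no interaction called.

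Of the 1756 genes lower in LP KO, 162 had an interaction below 0, and for 156 of these (96.3%) the basal KO mean was above the ML KO mean, against 49.9% of all genes tested. Of the 1079 genes lower in LP in both genotypes with no interaction called, 310 (28.7%) had the basal KO mean above the ML KO mean. The interaction and the KO difference share the ML KO and LP KO libraries. The 8 genes of lowest p for the interaction were Lama3, Col9a3, Col17a1, Cd44, Sema6a, Enpp1, Gpc6 and Epb41l2, with values of -3.94 to -6.90. Lama3, a laminin chain of the basement membrane, had 24.4, 20.4 and 11.5 CPM in LP KO, 83.2, 47.9 and 53.5 CPM in ML KO, 186, 149 and 94.1 CPM in LP WT and 5.54, 4.09 and 6.16 CPM in ML WT. It was thus higher in ML in KO and higher in LP in WT. Cd44, the hyaluronan receptor, had 335, 272 and 141 CPM in LP KO and 223, 176 and 126 CPM in ML KO, groups that overlapped, whereas LP WT and ML WT had 622, 394 and 215 CPM and 15.1, 11.01 and 10.9 CPM.

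Wnt pathway genes were lower in LP KO for 11 of 27 and higher for 2, with a median log2 difference of -0.65. The lower count was 7 without LP KO replicate 3, without ML KO replicate 2 or without ML KO replicate 3. Lgr5, the R-spondin receptor of basal and stem cells, had 0.0834, 0.167 and 0.198 CPM in LP KO and 10.7, 12.6 and 23.6 CPM in ML KO (log2 -6.60 ± 0.51, edgeR adjusted p = 5e-07). In WT it was higher in LP (2.99), from only 63 counts over LP WT and 10 over ML WT. The ligand Wnt5a had 1.63, 7.08 and 1.98 CPM in LP KO and 12.3, 82.5 and 89.6 CPM in ML KO, where replicate 1 was again the lowest. The 2 members higher in LP KO were the ligand Wnt5b, with 162, 146 and 182 CPM in LP KO and 71.4, 25.8 and 27.8 CPM in ML KO (log2 2.13), and Rspo1 (1.74).

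Of 19 Notch receptors, ligands and targets tested, 2 were higher and 4 lower in LP KO, beside 6.52% and 10.7% of all genes tested. The ligands Jag2, Jag1 and Dll1 were lower, with log2 differences of -2.99, -2.94 and -1.58. Jag1 had 16.8, 13.1 and 9.22 CPM in LP KO, against 80.7, 118 and 92.3 CPM in ML KO. The glycosyltransferase Lfng was also lower (-1.78; edgeR adjusted p = 0.0057, and 0.051, 0.054 and 0.061 without LP KO replicate 2, LP KO replicate 3 or ML KO replicate 3). The 2 higher members were the Notch targets Hey1 and Heyl (1.86 and 1.76), and no other listed target was called. The higher count was 0 without LP KO replicate 2, LP KO replicate 3 or ML KO replicate 2. It was 1 without ML KO replicate 3 and 4 without LP KO replicate 1. The receptors Notch1, Notch2, Notch3 and Notch4 were not called (0.27, 0.16, -0.33 and 0.34).

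Tight junction and keratin genes divided between the populations. Of 27 genes 4 were higher and 8 lower in LP KO. The higher count was 2 without LP KO replicate 1 or 3, ML KO replicate 2 or the mouse block, and 1 without ML KO replicate 3. The claudins Cldn3 and Cldn7 and the junction protein Tjp3 were higher (log2 1.34, 0.66 and 1.31), as was Cldn1, which had 447.7, 474.9 and 333 CPM in LP KO and 228.5, 96.4 and 133 CPM in ML KO. Cldn10, a claudin of ion-transporting epithelia, had 2.08, 6.13 and 4.64 CPM in LP KO and 25.9, 83.6 and 65.7 CPM in ML KO, and its log2 difference of -3.74 ± 0.22 (edgeR adjusted p = 8.9e-08) stood beside -3.85 in WT. The luminal keratins Krt8, Krt18 and Krt19 were not called (0.38, 0.41 and -0.22). Desmoplakin (Dsp) was lower in LP KO, with 149.7, 175 and 51.1 CPM against 574, 880.4 and 707 CPM in ML KO (log2 -2.59).

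Cell cycle genes were higher in LP KO for 8 of 36 and lower for 0, with a median log2 difference of 0.80. In WT 21 were higher and 0 lower in LP, with a median of 1.51. The interaction was below 0 for 2 and above 0 for 0. Aurkb, a mitotic kinase, had 18.5, 19.7 and 17.9 CPM in LP KO and 6.45, 12.6 and 4.19 CPM in ML KO (log2 1.46 ± 0.38, edgeR adjusted p = 0.016). The count of 8 was unstable. It was 1, 5 and 4 without LP KO replicate 1, 2 or 3, 1 and 0 without ML KO replicate 2 or 3, and 1 without the mouse block, but 17 in a fit of the 6 KO luminal libraries alone. The adjusted p of Aurkb was then 0.11 and 0.088 without LP KO replicate 1 or 3, 0.064 and 0.14 without ML KO replicate 2 or 3, and 0.12 without the block. The proliferation marker Mki67 was not called (0.34). Among 18 cyclins and inhibitors of cyclin-dependent kinases, Cdkn2d and Rb1 were higher and Ccnd2 lower, beside 6.52% higher and 10.7% lower of all genes tested. The higher count was 1 without LP KO replicate 1 or 3 and 0 without LP KO replicate 2, ML KO replicate 2 or ML KO replicate 3, and the lower count was 2 without ML KO replicate 3.

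Of 28 p53 target genes, 11 were lower in LP KO and 1 higher (Plk3), with a median of -0.30. In WT 10 were lower and 7 higher in LP, with a median of -0.19. The lower count in KO was 5 without LP KO replicate 3, ML KO replicate 2 or ML KO replicate 3. The higher count in KO was 2 without LP KO replicate 3 and with DESeq2 or limma voom. Trp53inp1, a p53-induced stress protein, had 42.8, 72.6 and 54.2 CPM in LP KO and 300.2, 599.9 and 633 CPM in ML KO (log2 -3.16 ± 0.45, edgeR adjusted p = 0.00017). The classical targets Cdkn1a and Mdm2 were not called (-0.32 and -0.39).

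Of 40 oxidative phosphorylation genes 1 was higher, Ndufa4, and 0 lower, with a median of 0.24, and 0 were higher without LP KO replicate 3, ML KO replicate 2 or ML KO replicate 3. In WT 17 of these were lower in LP, and the interaction was above 0 for 7. Glycolysis genes were higher for 5 of 19 and lower for 1, hexokinase 2 (Hk2), which had 101, 72.4 and 41.8 CPM in LP KO and 155, 242 and 203 CPM in ML KO (log2 -1.52 ± 0.26, edgeR adjusted p = 0.00087). The higher count was 2 without LP KO replicate 2 or 3, 1 without ML KO replicate 2 and 0 without ML KO replicate 3. In fatty acid and cholesterol synthesis 3 of 27 were higher, among them the desaturase Fads2, with 192, 238 and 198 CPM in LP KO and 110.2, 55.7 and 65.7 CPM in ML KO (log2 1.48 ± 0.28, edgeR adjusted p = 0.0017). That count was 1 without ML KO replicate 2 or 3, and 6.52% of all genes tested were higher. Immediate early genes, which can respond to tissue dissociation, were higher for 4 of 23 (Ier3, Myc, Fosl1 and Ier2) and lower for 1 (Klf2), against 18 higher in WT. The higher count in KO was 2 without LP KO replicate 2 or 3 and 1 without ML KO replicate 2 or 3. Beside 6.52% higher and 10.7% lower of all genes tested, counts this small and unstable are not read as results about the lists. Fos, Jun and Atf3 were not called in KO (-0.16, -0.27 and -0.18).

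**Figure D4:**
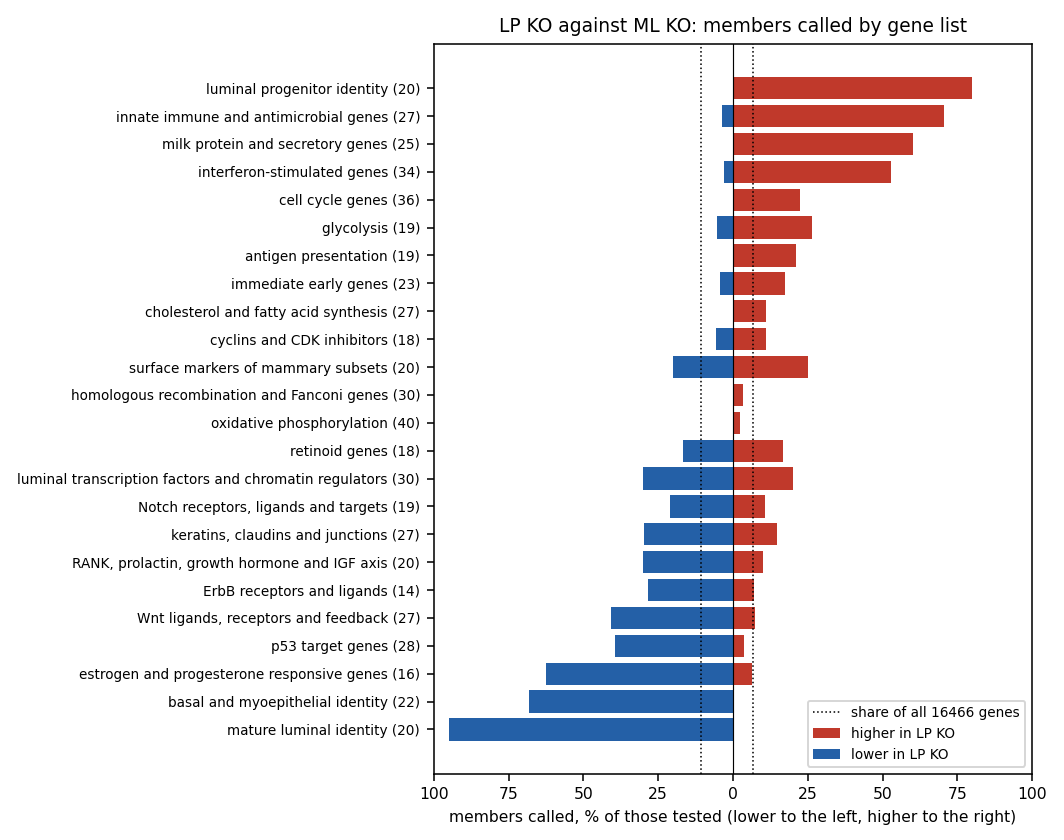
Share of the members of each gene list that were higher (to the right) or lower (to the left) in LP KO than in ML KO, with the number tested in brackets and dotted lines at the shares of all 16466 genes tested. The luminal progenitor, innate immune, milk and interferon lists extend to the right, and the mature luminal, basal and hormone-responsive lists to the left.

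Markers of other cell types were low but not equal. The summed level of 15 fibroblast genes was 114 to 196 CPM in LP KO and 311 to 532 CPM in ML KO, with Dcn, Col6a3 and Fbln1 lower in LP KO (log2 -3.53, -3.18 and -5.05) and the collagens Col1a1, Col1a2 and Col3a1 not called (0.88, -0.85 and 0.54). That of 15 endothelial and pericyte genes was 59.3 to 73.3 CPM in LP KO and 131 to 233 CPM in ML KO, with Emcn higher in LP KO and Eng and von Willebrand factor (Vwf) lower. The higher count of 1 was 0 without LP KO replicate 1, LP KO replicate 3, any 1 ML KO replicate or the mouse block and in the fit of 6 libraries, and the lower count was 2 in every setting. Vwf had 7.01, 13.0 and 4.91 CPM in LP KO, 64.7, 155 and 141 CPM in ML KO and 147, 234 and 215 CPM in ML WT, while the endothelial cadherin Cdh5 averaged 1.93 and 0.830 CPM in LP KO and ML KO. Adipocyte genes summed to 112 to 205 CPM in LP KO and 112 to 153 CPM in ML KO, with Fabp4 higher in LP KO (not called without ML KO replicate 2), and blood and muscle genes, none of which was called, to 5.10 to 24.9 CPM in LP KO and 7.59 to 26.7 CPM in ML KO. Of the surface markers of mammary subsets 5 of 20 were higher in LP KO (Cd14, Kit, Bst2, Itgb3 and Cd47) and 4 lower (Cd200, Prom1, Ly6a and Ly6d). The higher count was 3 without LP KO replicate 1, 2 or 3 and 2 without ML KO replicate 2 or 3, and the lower count was 2 without LP KO replicate 3, ML KO replicate 2 or ML KO replicate 3. The part of these cell types in the differences was not tested.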

How the data were processed

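The deposited values are raw counts of reads per gene, made by the authors from total RNA (miRNeasy micro kit, Illumina TruSeq RNA v2, per the labels' protocols) with featureCounts on mm10, per the submitters' processing notes; no source used here gives the aligner, versions, annotation or strand setting. Of 27179 gene IDs, 25275 matched a RefSeq symbol (GRCm38.p6), and the 1904 others held 1.6% of counts.

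Counts were fitted over all 18 libraries with edgeR 4.0.16 in R 4.3.3 (TMM scaling, filterByExpr, quasi-likelihood test) with the mouse as a block and LP against ML differences within each genotype. Columns begin with a mouse number, so LP and ML libraries of a number come from 1 animal. Deviations from group means correlated at 0.215 to 0.292 within KO mice and at -0.268 to -0.023 between them. Such deviations cancel out within a group, so positive values within mice force negative ones between them. The negative values are thus not separate support for the pairing. Calls used Benjamini-Hochberg adjusted p under 0.05 over 16466 genes. DESeq2 1.42.0 and limma 3.58.1 (voom) were alternatives. Each fit was tested on simulated data.

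Members and gene lists were chosen with earlier results of these data known. Genes named were Brca2, Trp53, 10 fixed lineage genes, the 12 largest rises and falls (mean of at least 20 CPM in the higher group, libraries not overlapping, same sign in 3 mice), up to 4 of lowest p per list and the 8 of lowest p for the interaction; other genes were named after their values were seen. With 3 mice per genotype, p-values rest on the spread that remains within mice after the mouse block. It was estimated per gene over all 18 libraries, basal ones included, with 8 residual degrees of freedom, and moderated across genes. Each SE is the size of the log2 difference divided by the square root of the F value of that test. Reads were not marked as unique molecules. Results for some genes are not reported here.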

Additional observations from a re-analysis of the deposited data

Results flagged for a closer look

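For each gene below, the LP minus ML difference was called different between KO and WT mice by the edgeR test of the difference itself. Values are KO minus WT differences on the log2 scale. Groups of 3 are too small for the outlier test used on larger groups, so none was run.

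Luminal progenitor, milk and innate immune genes had smaller LP over ML differences in KO: Kit (-4.49), Elf5 (-3.43), Aldh1a3 (-3.34), Csn3 (-3.28), Trf (-2.45), Lalba (-2.68), Mfge8 (-2.83), Lbp (-2.57), Lcn2 (-2.63), Csf3 (-2.43) and Cxcl2 (-3.19). Other genes higher in LP KO with negative values were Cbr2 (-2.05), Clic6 (-2.27), Rftn1 (-3.40), Igfbp5 (-3.65), Wnt5b (-3.12), Rb1 (-2.68), Ldhb (-1.96), Fads2 (-3.00), Fads1 (-3.02), Ier3 (-1.76), Fosl1 (-2.73), Myc (-1.60) and Itgb3 (-3.37).

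Basal, matrix and adhesion genes lower in LP KO than in ML KO were Dsc3 (-11.54), Hmcn1 (-7.91), Krt5 (-5.52), Krt14 (-4.81), Krt15 (-2.06), Col17a1 (-6.78), Cdh3 (-3.17), Lgr5 (-9.58), Id4 (-4.19), Lama3 (-6.44) and Gpc6 (-6.90). The value of Dsc3 rests on 4 counts over LP WT and 0 over ML WT and depends on how the fit treats 0. The WT counts were also few for Hmcn1 (10 over LP WT, 3 over ML WT) and Lgr5 (63 and 10). Growth factor, cyclin and Notch genes lower in LP KO were Ccnd2 (-6.05), Fst (-3.32), Wif1 (-5.20), Igfbp3 (-4.98), Igfbp2 (-5.87), Jag2 (-2.54) and Dll1 (-4.72). Trp53 (-1.96) and the p53 target gene Phlda3 (-4.10) were also lower in LP KO. The value of Wif1 rests on 4 counts over LP WT and 5 over ML WT and was -1.0 without LP WT replicate 3. Ccnd2 had 11 counts over LP WT and 9 over ML WT. Genes not called in KO were Col9a3 (-5.34), Cd44 (-4.47), Sema6a (-5.87), Enpp1 (-6.38) and Epb41l2 (-3.94).

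The interferon-stimulated gene Ifit3 had a value of -5.78, which rests on 0 counts in ML WT. Values above 0 were those of H2-K1 (1.20), Ndufa4 (1.41), Ndufb8 (1.22) and Prom1 (2.03). The calls for Prom1, Lalba, Csf3, Ifit3, H2-K1, Ldhb, Lcn2, Cbr2, Ndufb8, Myc, Csn3 and Wif1 were lost in 14, 11, 9, 9, 8, 8, 6, 5, 5, 4, 3 and 2 of the alternative settings, and those for Cxcl2, Dsc3, Igfbp2, Krt15 and Ndufa4 in 1 each.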

How the results depend on the processing

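The count of 2830 genes (1074 higher and 1756 lower in LP KO) became 1612, 513 and 1099 with every library thinned to the depth of the smallest, and the number higher became 517 without the mouse block (no pairing). Leaving out 1 luminal KO library in turn, which also leaves its partner without a pair, gave totals of 1185 to 2933, with 284 to 1128 higher and 900 to 1805 lower. The difference between KO and WT (1727 genes, 468 above 0) gave 1141 and 202 without the mouse block, 1113 and 180 after thinning, and 765 above 0 by DESeq2. Leaving out 1 library gave totals of 1116 to 1979, with 177 to 647 above 0. For these the cause was not tested beyond the smaller number of samples or reads.

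Col9a3, not called in KO (0.01), changed sign in the fit of 6 libraries (-0.03), with DESeq2, RLE scaling and limma voom (-0.01 each), and ranged from -0.17 to 0.23 as 1 library was left out. The KO minus WT difference of Prlr ranged from -0.72 to 0.26 and that of Ltf from -0.98 to 0.42, above 0 without LP KO replicate 3 and without ML KO replicate 1. Of 111 named genes 97 were called in KO, 63 of them past the threshold in every setting run and 34 lost in at least 1. Depth limits ML KO replicate 1 most among the KO luminal libraries, with 8760092 counts. That library also lay nearest to LP KO among the ML KO libraries on the second principal component.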
